A study of Mus musculus with 14 samples.

Results

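The 48 genes described here encode the respiratory chain and the tricarboxylic acid (TCA) cycle of the mouse. They are given as a list of gene names, and all 48 were found among the 51789 genes of the count table. They comprise 12 subunits of complex I, 4 of complex II, 4 of complex III, 9 of complex IV, cytochrome c, the ADP/ATP carrier Slc25a4, 13 mitochondrial enzymes of the TCA cycle, the 3 cytosolic enzymes Aco1, Idh1 and Mdh1, and pyruvate carboxylase. No subunit of complex V is among them. The ATP synthase genes were examined in a wider set of mitochondrial genes, and genes of the mitochondrial genome were not analysed here.

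The TCA cycle oxidises the acetyl group of acetyl-CoA in the mitochondrial matrix and passes its electrons to NADH and to complex II. Complexes I, III and IV move those electrons to oxygen and pump protons out of the matrix. Complex V uses the proton gradient to make ATP, and the ADP/ATP carrier exchanges that ATP for cytosolic ADP. ACSS2, the enzyme that the inhibitor targets, is not mitochondrial: it converts acetate to acetyl-CoA in cytosol and nucleus.

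RNA was measured in bulk mouse tumours, in a study whose title concerns ACSS2 inhibitors in triple negative breast cancer. There were 4 tumours from C57BI6 mice given the inhibitor (ACSS2i), 4 from C57BI6 mice given vehicle, 3 from mice labelled NGS given ACSS2i and 3 from NGS mice given vehicle. The label NGS is not spelled out, and the tumour cells, the compound, its dose, the length of treatment and the age of the mice were not stated. The study's design line speaks of Bmal1 status, which no label assigns to a library. The labels do not say that replicates came from separate animals, so the p-values below measure the spread between these libraries, which may be partly technical.

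Libraries were made by QuantSeq, which counts tags near the 3' end of each polyadenylated RNA, so a level is given as CPM, the count scaled to the total of its library, and is compared between libraries only, not between genes. Totals were 18392953 to 20344809 counts in C57BI6 ACSS2i libraries, 17645504 to 19198649 in C57BI6 vehicle, 2846161 to 4035025 in NGS ACSS2i and 4207301 to 4701101 in NGS vehicle, so that depth and strain cannot be told apart. In a principal component analysis of all tested genes, the first component (60.5% of the variance) separated the strains. On the second (11.1%) the library NGS ACSS2i 2 lay at -115, against -37.7 to 55.6 for the other 13 libraries. Every listed marker of tumour epithelium, fibroblasts, endothelium, leukocytes, fat, skin and skeletal muscle had counts in at least 1 library. Summed over the 16 muscle markers, 870, 24.2 and 28.7 CPM were found in NGS ACSS2i tumours, against 396, 8113 and 3574 CPM in NGS vehicle tumours. In C57BI6 the muscle sum was 312, 10.4, 3456 and 11.5 CPM in ACSS2i tumours and 1187, 24.3, 9.64 and 7.59 CPM in vehicle tumours. In bulk tissue, fewer cells of a type and less RNA per cell cannot be told apart.

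All 48 genes passed the filter on low counts, as did 17294 genes in all. In 43 of the 48, every library held at least 30 counts. The exceptions included Sdhd, with as few as 4 counts in an NGS ACSS2i library, and Pcx, with as few as 9 in an NGS vehicle library. A gene was called changed at an adjusted p under 0.05 in edgeR's quasi-likelihood test, with Benjamini-Hochberg adjustment over all tested genes. Fold changes are log2, ACSS2i over vehicle or C57BI6 over NGS, and are given ± SE.

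In C57BI6 tumours, none of the 48 genes changed with the inhibitor. The count was 0 of 48 by edgeR, where 0.312% of all tested genes were called, and it was also 0 by DESeq2 and by limma voom. At an unadjusted p under 0.05 edgeR gave 1 gene, against 7.96% of all tested genes. The fold changes lay between -0.44 for Pcx, which was 0.10 without C57BI6 vehicle 4, and 0.10 for Ndufb3. Of the 48, 40 were negative (83.3%), as were 52.3% of all tested genes, and the median was -0.08, against -0.01 over all tested genes. Scaled by library totals alone, 28 of the 48 were negative, with a median of -0.02 against 0.05 over all tested genes.

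The gene with the smallest p in C57BI6 was Idh2, the mitochondrial NADP-dependent isocitrate dehydrogenase. It had 97.0, 104.5, 88.2 and 100.2 CPM in ACSS2i tumours, against 110.4, 113.5, 110.3 and 109.6 CPM in vehicle tumours. Every ACSS2i library lay below every vehicle library. The fold change of -0.25 ± 0.09 did not pass the test (edgeR, adjusted p = 0.375). In 4 of the 48 genes (8.33%) the groups did not overlap, against 8.94% of all tested genes. Cox8a and Cox7a2, both small subunits of complex IV, came next with -0.15 ± 0.08 each (edgeR, adjusted p = 0.716 and 0.75), and in both the groups overlapped.

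By role, the 13 mitochondrial TCA enzymes in C57BI6 all had negative fold changes, from -0.25 to -0.02, with a median of -0.08, though Idh3a, Dlst, Suclg1, Fh1 and Mdh2 were positive when scaled by library totals alone. Complex I had 10 of 12 negative with a median of -0.05, of which Ndufa2, Ndufb10, Ndufs1, Ndufs3 and Ndufv2 were positive under that scaling. Complex IV had 8 of 9 negative with a median of -0.13, of which Cox6b1 was positive under it. Complex II had 3 of 4 negative and complex III 2 of 4. Cycs, which encodes cytochrome c, the electron shuttle between complexes III and IV, was at 0.06 ± 0.08 (edgeR, adjusted p = 0.956).

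In NGS tumours, 3 of the 48 genes fell with the inhibitor and none rose. They were Cox7c, a small subunit of complex IV, Slc25a4, the ADP/ATP carrier, and Ndufa1, an accessory subunit in the membrane arm of complex I. This is 6.25% of the genes, against 2.69% of all tested genes called in either direction and 1.38% called lower. At an unadjusted p under 0.05 there were 25 genes (52.1%, against 22.1% of all tested genes). At that threshold 21 of the 48 were lower, as were 12.1% of all tested genes. Of the 48, 30 had negative fold changes (62.5%, against 51.2% of all tested genes), with a median of -0.21 against -0.01. The groups did not overlap in 18 genes (37.5%, against 18.8% of all tested genes). The count of calls depended on the method: DESeq2 called 15 genes, 12 lower and 3 higher, limma voom called Slc25a4 alone, and an edgeR fit of the 6 NGS libraries by themselves called 0, with 13 at an unadjusted p under 0.05.

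Markers of other cell types moved in both directions in the NGS comparison. The fibroblast markers summed to 6283, 7058 and 7175 CPM in NGS ACSS2i tumours, against 8235, 7708 and 8587 CPM in NGS vehicle tumours, without overlap. Of the 6 fibroblast markers, 4 had negative fold changes. Of these, Dcn fell (-1.21 ± 0.22, edgeR, adjusted p = 0.0148), and no other listed marker was called. The skin markers summed to 534.2, 23.5 and 19.8 CPM in NGS ACSS2i tumours, against 1241, 64.97 and 45.4 CPM in NGS vehicle tumours, and these overlapped. Endothelial markers summed to 162.6, 196.8 and 224.3 CPM with ACSS2i in NGS, against 165.9, 125.3 and 154.7 CPM with vehicle. Leukocyte markers summed to 593.3, 881.5 and 742.7 CPM with ACSS2i in NGS, against 486.7, 597 and 660.8 CPM with vehicle. Both had the higher mean with ACSS2i, and in both the groups overlapped. The fat and tumour epithelium sums overlapped too. The part of these and of the muscle markers in the fold changes of the 48 genes was not tested, apart from the values without muscle-rich libraries given below.

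**Figure D1:**
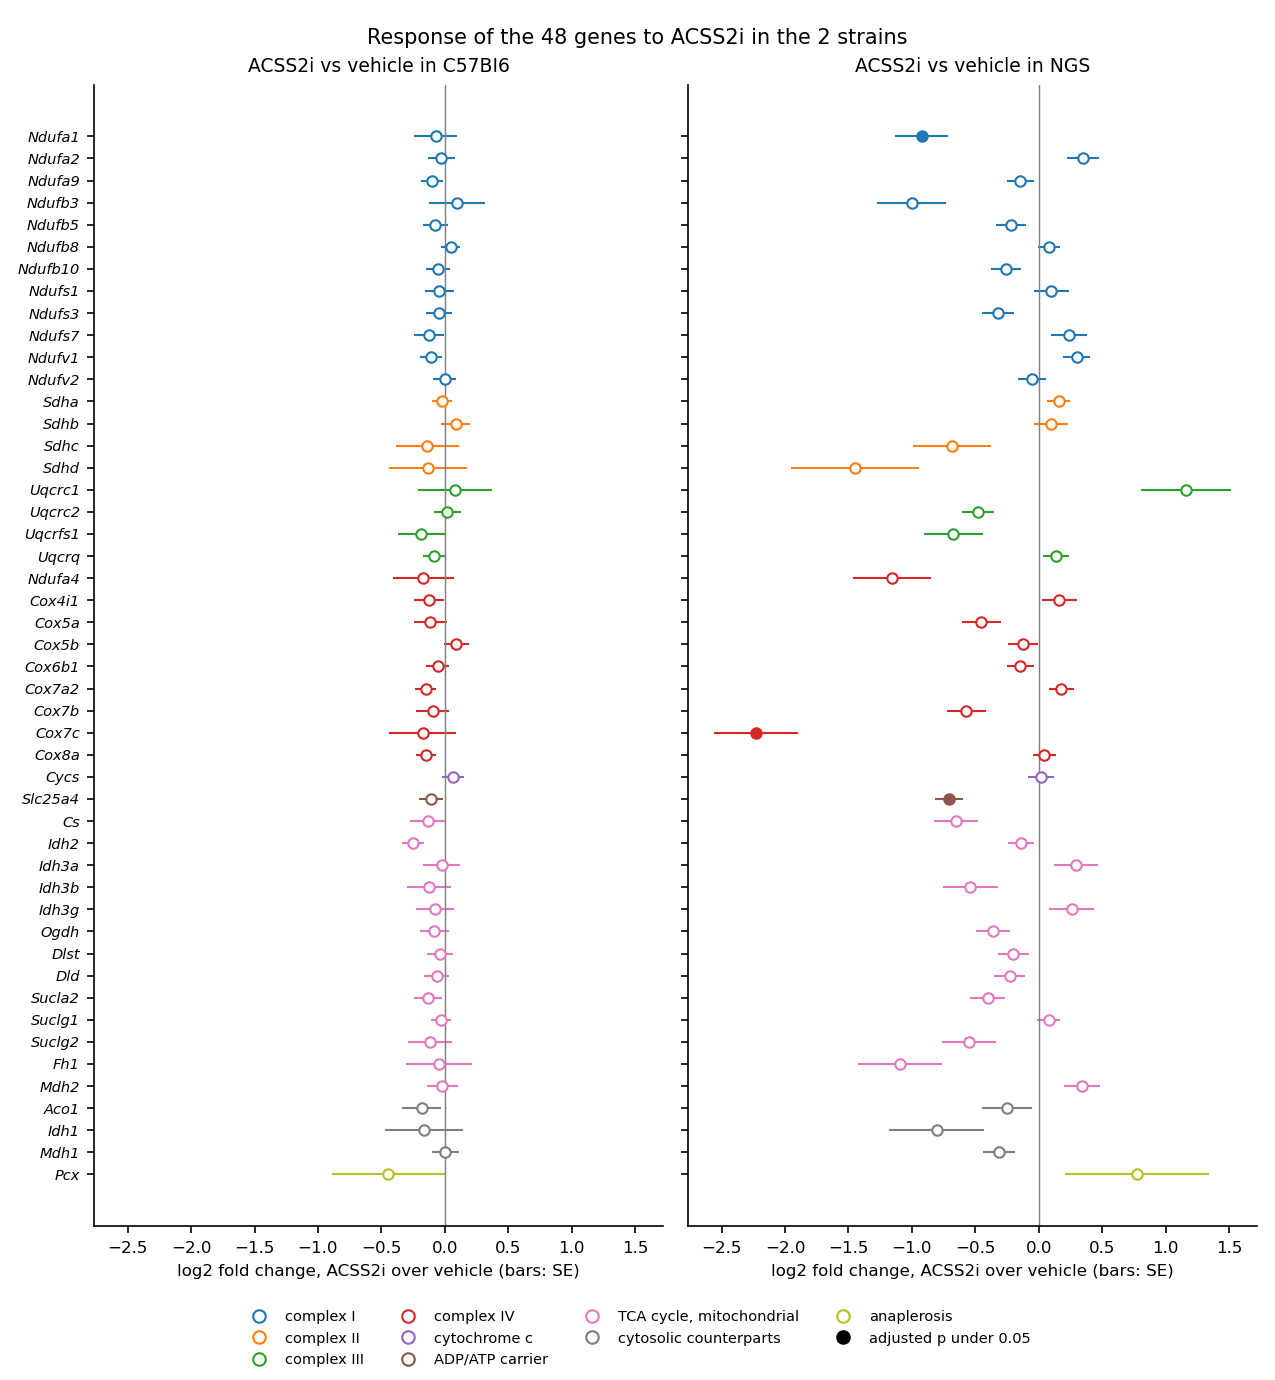
Log2 fold change of each of the 48 genes (rows, coloured by role), ACSS2i over vehicle, in C57BI6 (left) and NGS tumours (right). Bars are SE and filled points passed an adjusted p of 0.05 in edgeR. The C57BI6 values lie within -0.44 and 0.10, while those in NGS run from -2.23 for Cox7c to 1.16 for Uqcrc1.

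Ndufa1 (ENSMUSG00000016427; mm10 chrX:37187588-37191163, minus strand) is needed for complex I assembly. It had 78.9, 34.4 and 63.4 CPM in NGS ACSS2i tumours, against 113.8, 113.4 and 99.3 CPM in NGS vehicle tumours. The groups did not overlap, and the lowest value was in NGS ACSS2i 2. The fold change was -0.92 ± 0.21 (edgeR, adjusted p = 0.0308). The call was lost when NGS ACSS2i 3 or any of the 3 NGS vehicle libraries was left out, with an adjusted p of up to 0.077, and it held without NGS ACSS2i 2 (-0.64 ± 0.13, adjusted p = 0.0434). It was also lost without the 5 muscle-rich libraries (-1.21, adjusted p = 0.0562). In C57BI6 the same gene was at -0.07 ± 0.17.

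Among the other complex I subunits in NGS, Ndufb3, an accessory subunit, had a fold change of -1.0 ± 0.27 (edgeR, adjusted p = 0.061), without overlap between the groups, and was called without NGS ACSS2i 1 (adjusted p = 0.0189). The core subunit Ndufv1, which holds the flavin that takes electrons from NADH, was at 0.30 ± 0.10 (adjusted p = 0.119), also without overlap. Of the 12 subunits, 7 had negative and 5 positive fold changes, with a median of -0.10.

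Complex II gave no call in NGS by edgeR, with 2 of its 4 genes at an unadjusted p under 0.05, 1 call by DESeq2 (Sdhd) and 0 by limma voom. Sdhd, a membrane anchor of the complex, had 5.16, 2.81 and 0.991 CPM in NGS ACSS2i tumours, against 7.66, 5.76 and 9.98 CPM in NGS vehicle tumours. These rest on 18, 8 and 4 counts in ACSS2i libraries and 36, 25 and 42 in vehicle libraries. The groups did not overlap, and the fold change was -1.45 ± 0.50 (edgeR, adjusted p = 0.116). Leaving out single libraries moved it between -2.17 without NGS ACSS2i 1, where it was called (adjusted p = 0.0359), and -0.98 without NGS ACSS2i 3. The other anchor, Sdhc, was at -0.68 ± 0.31, at -0.32 without NGS ACSS2i 2, and at -1.32 without NGS ACSS2i 1, where it was called (adjusted p = 0.00479). It was also called without the 5 muscle-rich libraries. The catalytic subunits were at 0.16 ± 0.09 for the flavoprotein Sdha and 0.10 ± 0.13 for the iron-sulfur protein Sdhb, which was at -0.04 without NGS ACSS2i 2.

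Complex III also gave no call by edgeR in NGS, with 3 of 4 genes at an unadjusted p under 0.05, 3 calls by DESeq2 and 0 by limma voom. Its 2 core subunits, Uqcrc1 and Uqcrc2, differed in sign. Uqcrc2 had 69.7, 47.1 and 58.0 CPM in NGS ACSS2i tumours, against 86.6, 74.4 and 75.8 CPM in NGS vehicle tumours. Uqcrc1 had 88.6, 134.2 and 90.9 CPM in NGS ACSS2i tumours, against 28.1, 52.5 and 55.1 CPM in NGS vehicle tumours. Neither pair of groups overlapped. The fold changes were -0.48 ± 0.13 for Uqcrc2 (edgeR, adjusted p = 0.0595) and 1.16 ± 0.35 for Uqcrc1 (adjusted p = 0.0816), the highest of the 48 genes. Uqcrfs1, the Rieske iron-sulfur protein, was at -0.67 ± 0.23 and the small subunit Uqcrq at 0.14 ± 0.10. Without NGS ACSS2i 1, Uqcrc2 and Uqcrfs1 were called (adjusted p = 0.0105 and 0.0253), while without NGS ACSS2i 2 they stood at -0.34 and -0.38.

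**Figure D2:**
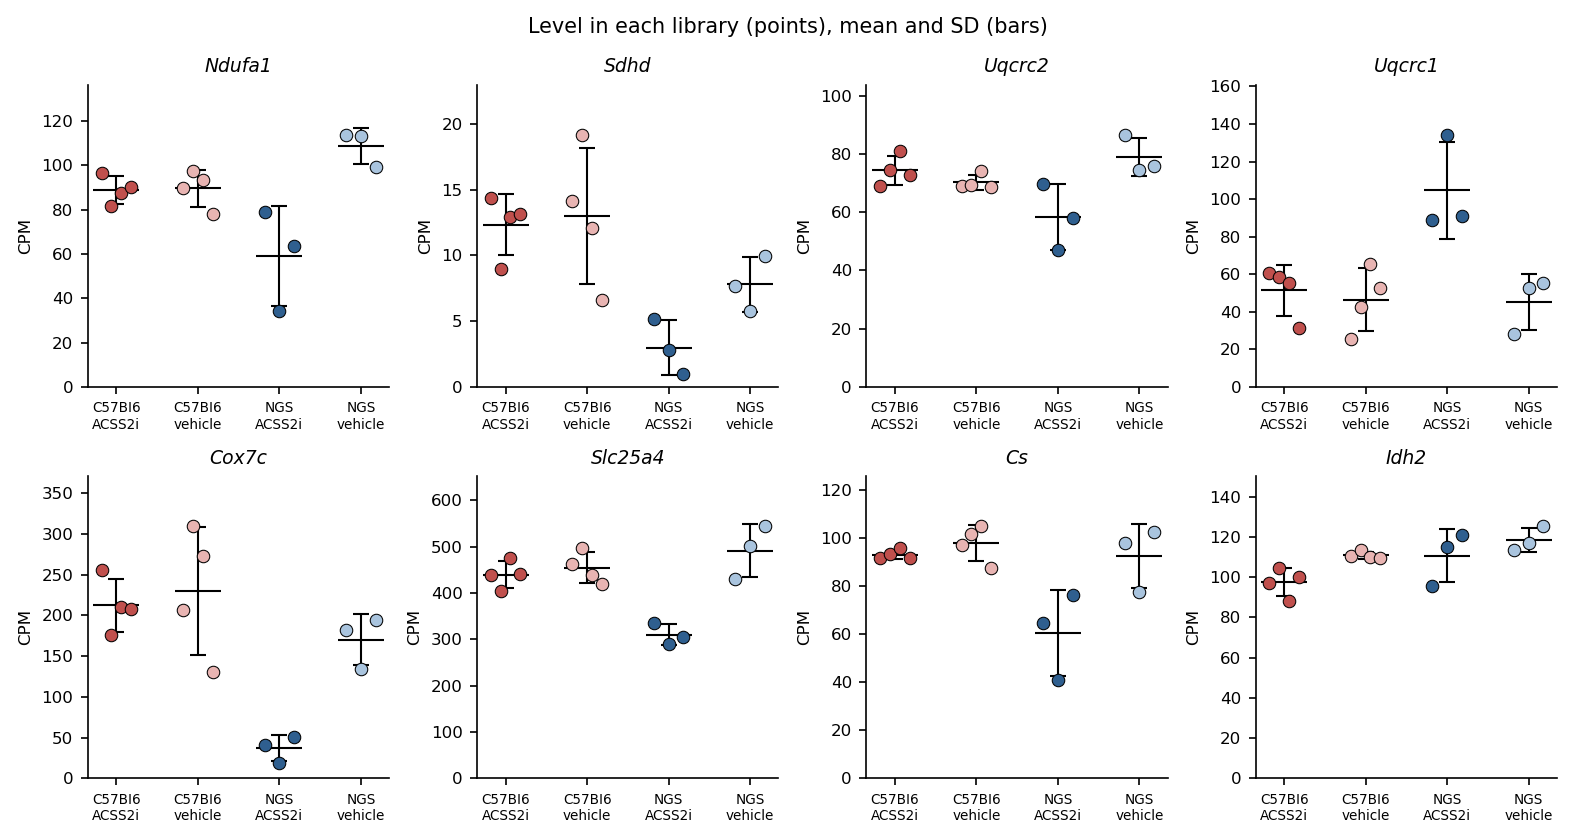
Level in CPM of 8 genes in each library (points), with the mean and SD of each group (bars), for C57BI6 ACSS2i, C57BI6 vehicle, NGS ACSS2i and NGS vehicle tumours. Cox7c lies at 19.3 to 50.8 CPM in NGS ACSS2i libraries, below the other 11 libraries, and Slc25a4 at 290.2 to 335.8 CPM is likewise below them. Idh2 is shown as the gene with the smallest p in C57BI6, and Uqcrc1 as the highest fold change in NGS.

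Complex IV held the lowest fold change of the 48 genes. Cox7c (ENSMUSG00000017778; mm10 chr13:86044816-86046904, minus strand) had 41.3, 19.3 and 50.8 CPM in NGS ACSS2i tumours, against 182.5, 134.3 and 194.2 CPM in NGS vehicle tumours. The ACSS2i values were all below the vehicle values, and below every C57BI6 library as well. The fold change was -2.23 ± 0.33 (edgeR, adjusted p = 0.00601). It was called without each of the 14 libraries in turn, at an adjusted p of 0.0226 or less, and with a fold change of -1.91 ± 0.31 without NGS ACSS2i 2. In C57BI6 tumours Cox7c had 255.2, 176.0, 210.4 and 208.2 CPM with ACSS2i, against 206.6, 309.3, 272.7 and 130.3 CPM with vehicle, and those groups overlapped (-0.17 ± 0.26).

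Reads of Cox7c can be shared with near-identical processed copies elsewhere in the genome. Its value may thus depend on how the counting divided them, which was not tested. A search of the GENCODE M21 transcripts at 95% identity found 4 copies, and 2 of them had counts in every library: Gm10012, on chromosome 17, and Gm12338, on chromosome 11. Gm10012 lies at mm10 chr17:25901856-25902227 on the plus strand and Gm12338 at chr11:75599763-75599954 on the minus strand. The other 2, Gm20091 and Gm19309, had at most 0.0544 CPM. The coding sequence of Cox7c and the aligned stretch of both copies with counts, from GENCODE M21 on mm10, are printed. They show how close the copies are over the coding bases only. Capitals mark the bases of a copy that differ from Cox7c, which are 2 of 192 in Gm10012 and 0 of 192 in Gm12338.
Cox7c: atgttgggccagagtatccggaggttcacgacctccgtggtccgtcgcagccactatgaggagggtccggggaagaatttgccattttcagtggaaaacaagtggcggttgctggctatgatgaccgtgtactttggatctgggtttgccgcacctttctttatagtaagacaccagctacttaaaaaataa
Gm10012: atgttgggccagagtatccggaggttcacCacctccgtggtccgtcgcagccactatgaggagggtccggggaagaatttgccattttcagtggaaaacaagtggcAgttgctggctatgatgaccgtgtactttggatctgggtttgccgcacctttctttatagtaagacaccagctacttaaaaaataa
Gm12338: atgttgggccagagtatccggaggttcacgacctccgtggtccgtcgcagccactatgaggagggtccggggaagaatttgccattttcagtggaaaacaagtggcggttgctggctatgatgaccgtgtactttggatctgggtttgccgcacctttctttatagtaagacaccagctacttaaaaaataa

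The expressed copies differed in how they compared with Cox7c. Gm12338 had 44.2, 7.73 and 24.3 CPM in NGS ACSS2i tumours, against 58.3, 64.05 and 90.1 CPM in NGS vehicle tumours, and like Cox7c was lower in every ACSS2i library. Gm10012 had 279.9, 34.8 and 170.0 CPM in NGS ACSS2i tumours, against 273.6, 279.5 and 255.0 CPM in NGS vehicle tumours. In NGS ACSS2i 1 it was thus level with the vehicle libraries, and in the other ACSS2i libraries it was lower. Of the sum of Cox7c and its copies, Cox7c took 11.3%, 31.2% and 20.7% in NGS ACSS2i tumours, against 35.5%, 28.1% and 36.0% in NGS vehicle tumours. The sum itself was 365.3, 61.8 and 245.1 CPM in NGS ACSS2i tumours and 514.3, 477.9 and 539.3 CPM in NGS vehicle tumours, without overlap. Tested on the sum, Cox7c had a fold change of -1.23 ± 0.38 and was no longer called (edgeR, adjusted p = 0.087).

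**Figure D3:**
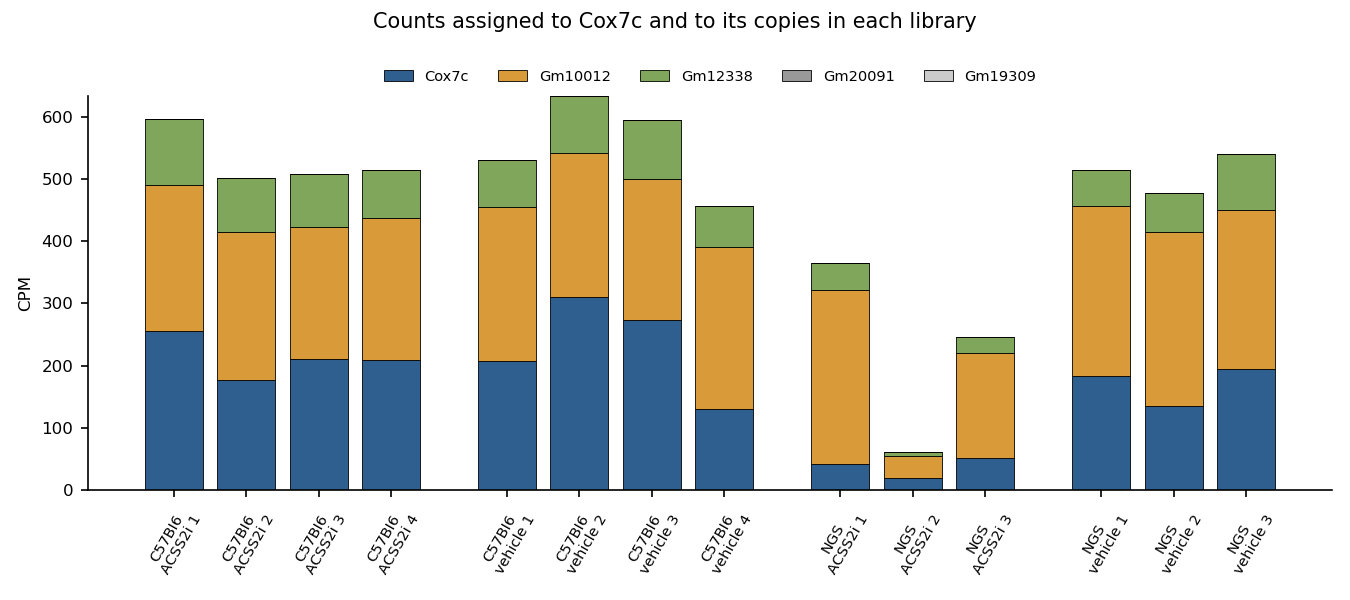
CPM given to Cox7c (blue) and to its near-identical copies (other colours), stacked for each of the 14 libraries. The stack is 365.3, 61.8 and 245.1 CPM high in the NGS ACSS2i libraries and 456.4 CPM or more in the other 11.

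The remaining complex IV genes gave no call by edgeR in NGS, though DESeq2 called Ndufa4, Cox7b and Cox5a lower. Ndufa4, once assigned to complex I and now placed with complex IV, was at -1.16 ± 0.31 (edgeR, adjusted p = 0.0565). Cox7b, a small subunit with 2 copies of its own in the table, was at -0.57 ± 0.15 (adjusted p = 0.061). Those copies summed to at most 0.238 CPM in any library, and with them added Cox7b stood at -0.57 ± 0.16 (adjusted p = 0.0609). Ndufa4 and Cox7b were both without overlap between the groups. Each was called without NGS ACSS2i 1 (adjusted p = 0.0267 for Ndufa4 and 0.027 for Cox7b). Cox7a2 was at 0.18 ± 0.10, Cox4i1, which stabilises the catalytic core, at 0.16 ± 0.14 and Cox8a at 0.04 ± 0.09, which was -0.10 with a correction for base composition. Cycs, which also has copies in the table, stood at 0.02 ± 0.10 alone, -0.03 without NGS vehicle 1 and 0.27 ± 0.14 with its 4 copies added.

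Slc25a4 (ENSMUSG00000031633; mm10 chr8:46206797-46211284, minus strand) is the main ADP/ATP carrier of heart and skeletal muscle. It had 335.8, 290.2 and 304.8 CPM in NGS ACSS2i tumours, against 429.7, 500.7 and 543.8 CPM in NGS vehicle tumours. The ACSS2i libraries lay below all other libraries of the series. The fold change was -0.71 ± 0.11 (edgeR, adjusted p = 0.00743), and it was called without each library in turn at an adjusted p of 0.0338 or less. All 16 skeletal muscle markers had negative fold changes in the same comparison, with a median of -3.78, and none was called by edgeR. Slc25a5, a carrier gene of the wider set, had 120.4, 31.3 and 96.4 CPM in NGS ACSS2i tumours. It had 162.3, 130.4 and 143.8 CPM in NGS vehicle tumours, without overlap, and was not called by edgeR. Without the 5 libraries of either strain with over 500 CPM of muscle markers, which leaves 1 NGS vehicle library that is assumed to vary like the other groups, Slc25a4 stood at -0.54 and was not called (adjusted p = 0.0762). In C57BI6 it had 437.9, 404.1, 475.6 and 441.4 CPM with ACSS2i, against 463.1, 497.3, 438.8 and 419.5 CPM with vehicle (-0.11 ± 0.09).

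Of the 13 mitochondrial TCA enzymes in NGS, edgeR called 0, with 7 at an unadjusted p under 0.05, 6 of them lower, DESeq2 called 2 (Cs and Fh1) and limma voom 0. Citrate synthase, Cs, which joins acetyl-CoA to oxaloacetate, had 64.5, 40.8 and 76.1 CPM in NGS ACSS2i tumours, against 97.8, 77.4 and 102.4 CPM in NGS vehicle tumours. The groups did not overlap, but the highest ACSS2i value was close to the lowest vehicle value, and the fold change was -0.65 ± 0.17 (edgeR, adjusted p = 0.0565). It ranged from -0.85 without NGS ACSS2i 3 to -0.42 without NGS ACSS2i 2, and was called without NGS ACSS2i 1 or NGS ACSS2i 3, with a lowest adjusted p of 0.0434. Fumarase, Fh1, was at -1.10 ± 0.33 (adjusted p = 0.0815). It had 30.1, 5.27 and 24.0 CPM in NGS ACSS2i tumours, against 40.4, 42.9 and 42.1 CPM in NGS vehicle tumours, and it was called without NGS ACSS2i 2, at -0.66 ± 0.12 (adjusted p = 0.0312), and without NGS ACSS2i 1, at -1.50.

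The subunits of the NAD-dependent isocitrate dehydrogenase lay on both sides of 0 in NGS. Idh3b was at -0.54 ± 0.22, Idh3a at 0.30 ± 0.17 and Idh3g at 0.26 ± 0.18, none of them called. The succinyl-CoA synthetase genes were at -0.40 ± 0.14 for Sucla2, -0.55 ± 0.22 for Suclg2 and 0.08 ± 0.09 for Suclg1. Malate dehydrogenase was at 0.34 ± 0.14 for the mitochondrial Mdh2 (adjusted p = 0.17) and -0.31 ± 0.13 for the cytosolic Mdh1 (adjusted p = 0.171). Mdh1 had 84.6, 56.2 and 67.7 CPM in NGS ACSS2i tumours, against 78.9, 84.8 and 88.2 CPM in NGS vehicle tumours, and these overlapped. Several of these values leaned on NGS ACSS2i 2: without it Idh3b stood at -0.24, Idh3g at 0.04, Suclg2 at -0.25, Sucla2 at -0.24, Mdh2 at 0.16 and Mdh1 at -0.17. Mdh1 and Mdh2 were called without NGS ACSS2i 1 (adjusted p = 0.0224 and 0.0212), and Sucla2 without NGS ACSS2i 3 (0.0454). Pcx, which makes oxaloacetate from pyruvate, had 3.44, 7.38 and 5.45 CPM in NGS ACSS2i tumours, against 1.91, 2.53 and 4.75 CPM in NGS vehicle tumours, on 9 to 22 counts (0.78 ± 0.57, adjusted p = 0.447).

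Summed by role, the members of complexes I, II and III partly offset each other in NGS. The 48 genes together made up 6008, 5949 and 6120 CPM in NGS ACSS2i tumours, against 6245, 6499 and 6164 CPM in NGS vehicle tumours, without overlap. In C57BI6 the sum was 5537, 5371, 5553 and 5419 CPM with ACSS2i, against 5494, 5781, 5604 and 5213 CPM with vehicle. Complex I summed to 1337 ± 29.4 CPM in NGS ACSS2i tumours and 1317 ± 46.1 CPM in NGS vehicle tumours (SD, n = 3 each). Complex III summed to 494.5 ± 7.18 CPM in NGS ACSS2i tumours and 440.4 ± 27.6 CPM in NGS vehicle tumours, higher with ACSS2i without overlap. Complex IV summed to 2108 ± 89.2 CPM in NGS ACSS2i tumours and 2251 ± 160.5 CPM in NGS vehicle tumours. The 3 cytosolic enzymes summed to 124.4 ± 44.7 CPM in NGS ACSS2i tumours and 170.2 ± 15.1 CPM in NGS vehicle tumours. In complex IV and the cytosolic enzymes the groups overlapped. These sums weight each gene by its counts and were not tested.

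NGS ACSS2i 2 stood furthest from the vehicle libraries. It was the lowest of the 6 NGS libraries for 24 of the 48 genes and the highest for 13. It lay under 50% of the NGS vehicle mean for 13 genes, where NGS ACSS2i 1 did so for 1 and NGS ACSS2i 3 for 2. Across the 48 genes, the SD of the log2 ratio to the vehicle mean was 1.07 in this library, 0.41 in NGS ACSS2i 1 and 0.62 in NGS ACSS2i 3, and 0.16 to 0.20 in the NGS vehicle libraries. The median log2 ratio was -0.34 in NGS ACSS2i 2, -0.05 in NGS ACSS2i 1 and -0.09 in NGS ACSS2i 3. This library also had the fewest counts, 2846161. Without it, 4 genes were called lower, the same 3 and Fh1, and 30 of the 48 fold changes were negative, as with it, with a median of -0.15 against 0.00 over all tested genes. Without NGS ACSS2i 1 instead, 15 genes were called.

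**Figure D4:**
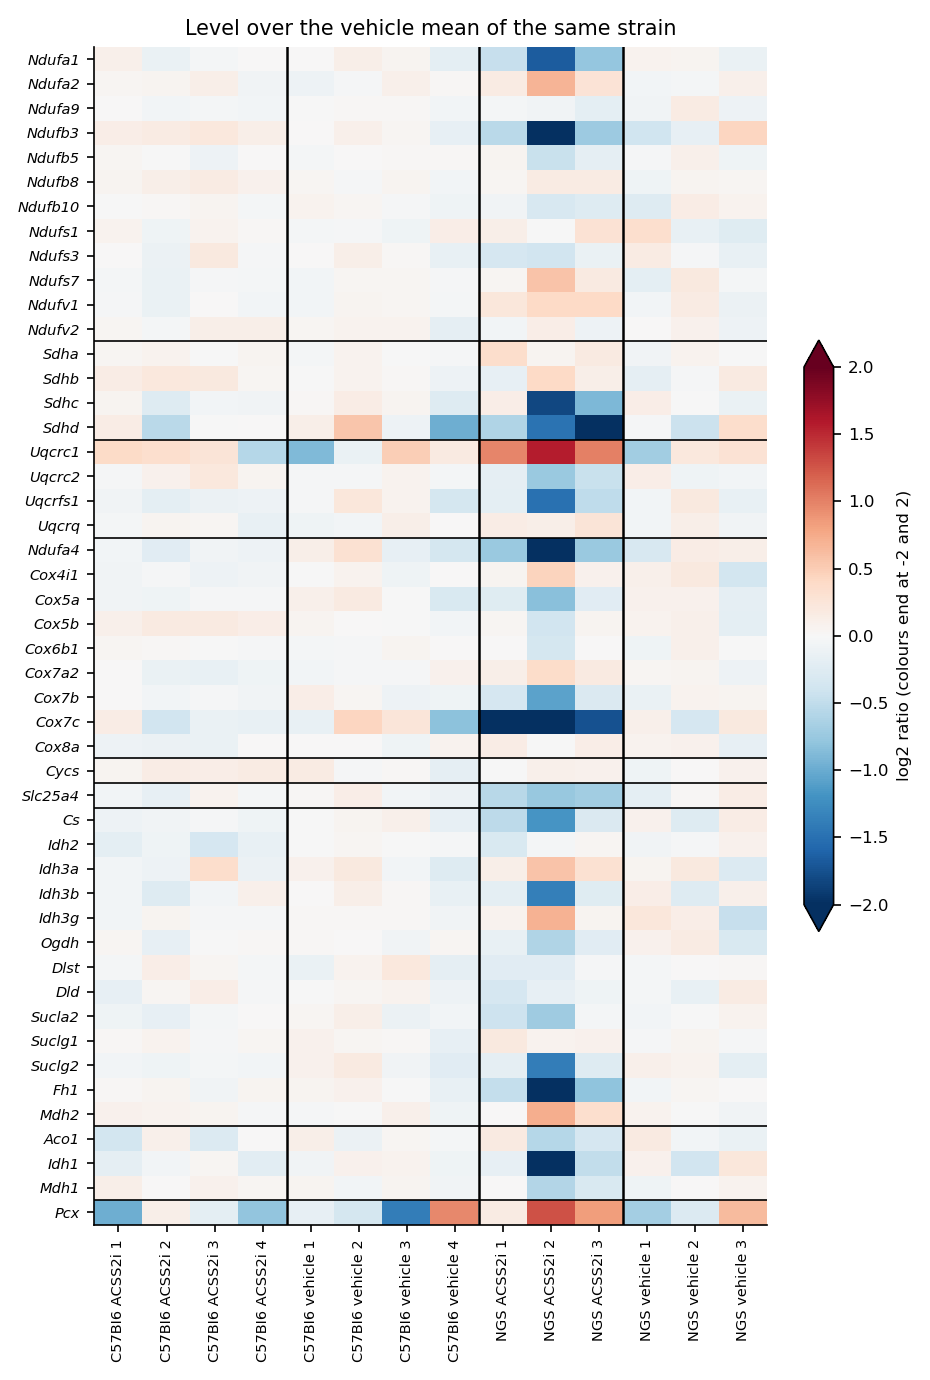
Log2 ratio of each gene's CPM to the vehicle mean of the same strain, for 48 genes (rows, divided by role) and 14 libraries (columns, divided by group). The median ratio is -0.34 in NGS ACSS2i 2 and between -0.09 and 0.05 in the other 13 libraries.

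The fold changes in NGS followed the base composition of the transcript end from which QuantSeq reads derive. Over the 48 genes, GC of the last 500 transcript bases and the NGS fold change had a Spearman correlation of 0.62 and a Pearson correlation of 0.56, against 0.14 and 0.06 over the 17261 tested genes with an annotated end. All points share the same 6 libraries, so the correlation is a description. In C57BI6 the Spearman value over the 48 genes was 0.04. With a bound of 45% GC chosen after the values were seen, 17 of the 18 genes under it had negative fold changes in NGS, with a median of -0.56, against 56.9% and -0.08 over all tested genes under it. Of the 30 genes at or over it, 13 were negative (43.3%), with a median of 0.08, against 46.3% and 0.02 over all tested genes at or over it.

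Libraries differed in their GC trend over all genes. Per 10 points of GC, the log2 level moved by 0.02, 0.12 and 0.04 in the NGS ACSS2i libraries, against -0.10, -0.01 and -0.07 in the NGS vehicle libraries. With each library's trend over all genes taken out, the Spearman correlation over the 48 genes was 0.48, and the same 3 genes were called. In the uncorrected fit it was 0.60 without NGS ACSS2i 2. Of the 3 called genes, Slc25a4 and Cox7c have 42.0% and 42.3% GC at the transcript end and Ndufa1 47.5%. The part of GC in these fold changes beyond that correction was not tested.

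**Figure D5:**
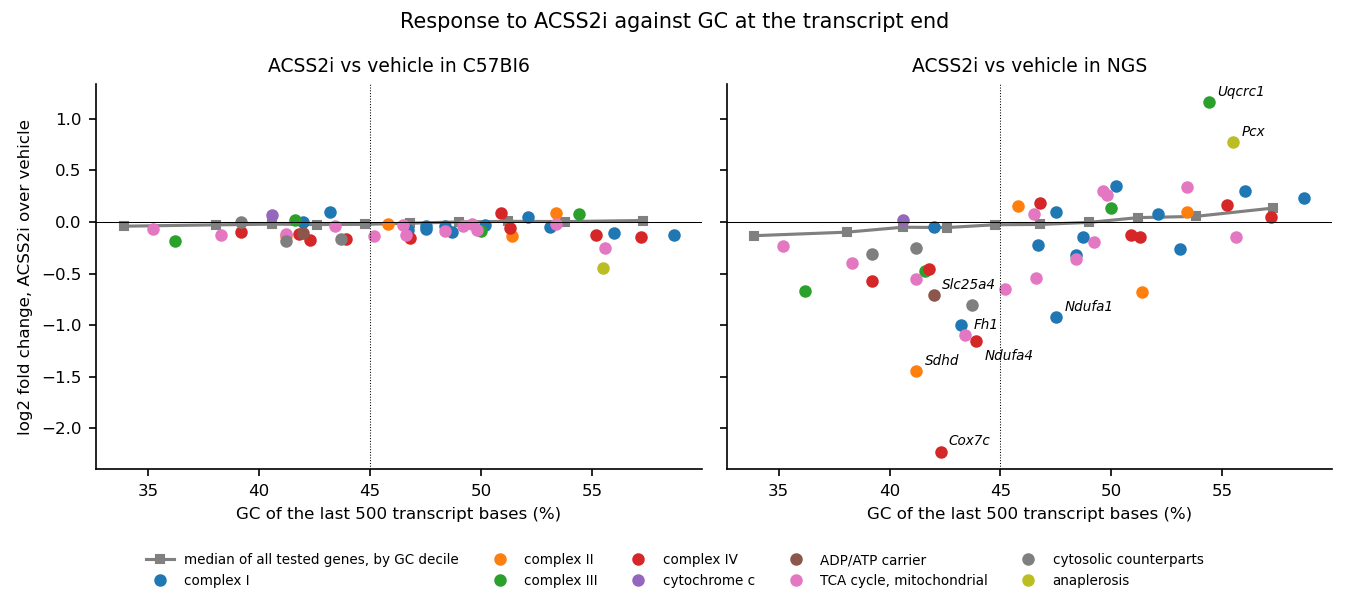
Log2 fold change, ACSS2i over vehicle, against the GC content of the last 500 transcript bases, for the 48 genes (coloured points) in C57BI6 (left) and NGS tumours (right). Grey squares are medians of all tested genes in 10 bins of GC, and the dotted line marks 45% GC. In NGS, 17 of the 18 genes left of the line are negative, while in C57BI6 the points stay near 0 at every GC.

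Whether the response to ACSS2i differed between the strains was tested directly, as the C57BI6 effect minus the NGS effect. EdgeR called 0 of the 48 genes, where 0.0173% of all tested genes (3 genes) were called. At an unadjusted p under 0.05 there were 14 genes, 29.2%, against 13.8% of all tested genes. DESeq2 called 2, Cox7c and Slc25a4, and limma voom 0. The differences were 2.05 ± 0.42 for Cox7c (edgeR, adjusted p = 0.141; 1.105 ± 0.50 with its copies added, adjusted p = 0.346), 0.60 ± 0.14 for Slc25a4 (adjusted p = 0.19) and 0.85 ± 0.27 for Ndufa1 (adjusted p = 0.228). The presence of calls in NGS and their absence in C57BI6 is therefore not shown by edgeR to be a difference between strains.

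Between the strains, 24 of the 48 genes differed in ACSS2i tumours (50%), where 40.3% of all tested genes were called. Of the 48, 13 were called higher and 11 lower in C57BI6, as were 23.1% and 17.2% of all tested genes. The strain comparisons share their libraries with the treatment comparisons above. The fold change of Cox7c, C57BI6 over NGS, was 2.64 ± 0.32 alone and 1.37 ± 0.36 with its copies added (edgeR, adjusted p = 0.00819). Its size thus depended on whether the copies were counted with it. How shared reads were divided between them was not tested. The fold changes were 2.20 ± 0.45 for Sdhd, 1.46 ± 0.26 for Ndufb3, 1.15 ± 0.29 for Sdhc and 0.97 ± 0.22 for Uqcrfs1. They were 0.75 ± 0.16 for Cs, 0.72 ± 0.19 for Ndufa1, 0.63 ± 0.10 for Slc25a4, 0.56 ± 0.12 for Ndufs3, a core subunit of complex I, and 0.48 ± 0.12 for Uqcrc2. Idh3b, Suclg2 and Sucla2, at 0.74, 0.64 and 0.40, completed the 13.

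The 11 lower genes held parts of the same machines. Idh3a and Idh3g, partners of Idh3b, were at -0.90 ± 0.16 and -0.74 ± 0.17, and Mdh2 at -0.58 ± 0.13. Of complex I, Ndufv1 and the iron-sulfur subunit Ndufv2 were at -0.62 ± 0.10 and -0.36 ± 0.10. Uqcrq was at -0.68 ± 0.09, Cox4i1 at -0.63 ± 0.13, Cox7a2 at -0.49 ± 0.09 and Sdhb at -0.38 ± 0.12. Pcx was at -1.66 ± 0.51 and Uqcrc1 at -0.89 ± 0.32. The adjusted p-values of the 24 genes in edgeR ran from 1.92e-05 for Cox7c to 0.0367 for Uqcrc1. Without NGS ACSS2i 2, 20 of the 24 were called. Pcx (adjusted p = 0.08), Sdhb, Sucla2 and Uqcrc1 were not. Without it Ndufa1 stood at 0.46, Idh3b at 0.47, Suclg2 at 0.37, Idh3g at -0.49 and Mdh2 at -0.37, while Sdhc was at 1.795 without NGS ACSS2i 1. Sdhb was also lost without NGS ACSS2i 3 or C57BI6 ACSS2i 4, at an adjusted p of up to 0.153. Uqcrc1 was lost without NGS ACSS2i 3, C57BI6 ACSS2i 3 or C57BI6 ACSS2i 4 as well (up to 0.159), and Sucla2 without NGS ACSS2i 1.

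Cell-type markers differed between the strains too. In ACSS2i tumours, C57BI6 over NGS, edgeR called 4 of 6 fibroblast markers lower and 1 higher, 4 of 7 skin, 3 of 8 fat and 3 of 5 endothelial markers lower, 6 of 12 leukocyte markers higher and 1 lower, 1 of 7 tumour epithelium markers higher and 0 of 16 muscle markers. In vehicle tumours it called 4 of 6 fibroblast markers lower and 1 higher, 6 of 7 skin, 5 of 16 muscle, 1 of 8 fat and 1 of 5 endothelial markers lower, 5 of 12 leukocyte markers higher and 1 lower, and of the 7 tumour epithelium markers 1 higher and 2 lower. The T-cell marker Cd3e had 2.61, 4.72, 1.40 and 2.31 CPM in C57BI6 ACSS2i tumours and 0 counts in all 6 NGS libraries. The leukocyte marker called lower in C57BI6 was Adgre1 in both comparisons (-0.56 ± 0.13 in ACSS2i and -0.47 ± 0.13 in vehicle tumours). Summed over all leukocyte markers, the mean was 760.2 CPM in C57BI6 ACSS2i tumours and 739.2 CPM in NGS ACSS2i tumours. In vehicle tumours the mean leukocyte sum was 638.3 CPM in C57BI6 and 581.5 CPM in NGS. In both comparisons these sums overlapped between the strains. The fibroblast sum was 6288 ± 651.5 CPM in C57BI6 ACSS2i tumours and 6838 ± 484.8 CPM in NGS ACSS2i tumours, and 5853 ± 579.5 CPM in C57BI6 vehicle tumours and 8177 ± 442.3 CPM in NGS vehicle tumours (SD, n = 4 in C57BI6 and 3 in NGS). The tumour epithelium sum was 415.5 ± 36.5 CPM in C57BI6 ACSS2i tumours and 291.6 ± 53.0 CPM in NGS ACSS2i tumours, and 385.3 ± 25.0 CPM in C57BI6 vehicle tumours and 291.0 ± 17.9 CPM in NGS vehicle tumours. The part of these markers in the differences of the 48 genes was not tested. Without the muscle-rich libraries, 25 of the 48 genes were called in ACSS2i tumours.

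In vehicle tumours, 5 of the 48 genes differed between the strains, all lower in C57BI6. This is 10.4% of the genes, against 32.8% of all tested genes in either direction and 14% lower. At an unadjusted p under 0.05 there were 15 genes, or 31.2% against 43.3% of all tested genes. The groups did not overlap in 24 genes (50%, against 41.5% of all tested genes), and 23 of these were lower in C57BI6. Overlap was judged on CPM, which is scaled by library totals, while the fold changes use the TMM scaling of the main test. The 23 include Cox6b1 and Uqcrc2, with fold changes of -0.005 and -0.019 only. Uqcrq, a small subunit of complex III, had 163.0, 166.9, 186.2 and 174.0 CPM in C57BI6 vehicle tumours, against 253.8, 283.9 and 250.8 CPM in NGS vehicle tumours. The groups lay far apart, at -0.46 ± 0.09 (edgeR, adjusted p = 0.00168). Ndufv2, an iron-sulfur subunit of complex I, had 70.4, 72.0, 71.9 and 61.1 CPM in C57BI6 vehicle tumours, against 102.5, 108.1 and 94.6 CPM in NGS vehicle tumours (-0.41 ± 0.10, adjusted p = 0.00526).

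Idh3a, the catalytic subunit of the NAD-dependent isocitrate dehydrogenase, had 56.3, 60.7, 50.9 and 44.6 CPM in C57BI6 vehicle tumours, against 90.8, 100 and 72.3 CPM in NGS vehicle tumours (-0.58 ± 0.16, edgeR, adjusted p = 0.0121). Dld, the dehydrogenase subunit shared by the pyruvate and 2-oxoglutarate dehydrogenase complexes, had 29.2, 30.1, 30.6 and 27.2 CPM in C57BI6 vehicle tumours, against 41.7, 38.7 and 47.8 CPM in NGS vehicle tumours. Sdhb had 134.4, 142.6, 137.4 and 126.1 CPM in C57BI6 vehicle tumours, against 171.2, 191.5 and 218.2 CPM in NGS vehicle tumours. None of these groups overlapped, and the adjusted p-values were 0.0132 for Dld and 0.0328 for Sdhb. Uqcrq, Ndufv2, Idh3a and Sdhb were called lower in C57BI6 in ACSS2i tumours as well.

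The calls in the vehicle comparison changed when single libraries were left out. Without NGS ACSS2i 2, which is in neither group compared, 15 genes were called, 10 lower and 5 higher in C57BI6. That library enters through the shared estimate of spread, the scaling and the filter on low counts. Idh3a was not called without NGS vehicle 2 (adjusted p = 0.0666), Dld not without NGS vehicle 3 (0.075), and Sdhb not without 5 different libraries in turn (up to 0.152). Without the muscle-rich libraries, 3 C57BI6 vehicle libraries were set against a single NGS vehicle library that is assumed to vary like the other groups, and Idh3a alone was called (1 gene). In that fit Sdhb stood at -0.14 (adjusted p = 0.58) and Uqcrq at -0.33 (adjusted p = 0.156). Scaling by library totals alone called 15 genes, all lower, and moved the median of all tested genes to -0.14, against 0.01 with TMM scaling and a median of -0.23 over the 48 genes.

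Beyond the 48, 115 other tested genes of mitochondrial energy supply were examined. They comprised the other subunits of complexes I, III and IV, complex V, pyruvate entry, carriers, assembly factors, biogenesis regulators, oxygen-responsive genes and muscle isoforms. In C57BI6, edgeR called 0 of them with ACSS2i, where 0.312% of all tested genes were called, with 4 at an unadjusted p under 0.05 (3.48%, against 7.96%), and DESeq2 and limma voom called 1 each. In NGS, edgeR called 5, all lower (4.35%, against 2.69% of all tested genes in either direction and 1.38% lower), DESeq2 13 and limma voom 1. At an unadjusted p under 0.05 edgeR gave 28 of the 115 in NGS (24.3%, against 22.1% of all tested genes). Complex V, the ATP synthase, had 0 of 17 called by edgeR in NGS, with 4 at an unadjusted p under 0.05, 2 by DESeq2 and 0 by limma voom. Its median was -0.11 in NGS and -0.10 in C57BI6. The other subunits of complex I had 0 of 24 called by edgeR in NGS, with 6 at an unadjusted p under 0.05, 3 by DESeq2 and 0 by limma voom, and a median of 0.01.

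The 5 wider genes that fell in NGS were spread over 4 lists. Bnip3, an oxygen-responsive mitophagy receptor, had 98.4, 80.8 and 76.1 CPM in NGS ACSS2i tumours, against 153.6, 141.7 and 129.3 CPM in NGS vehicle tumours, without overlap (-0.78 ± 0.12, edgeR, adjusted p = 0.00746). Of the assembly factors, 2 of 20 fell: Cox17, a copper chaperone of complex IV (-1.20 ± 0.29, adjusted p = 0.0438), and Sdhaf2, which helps to attach the flavin of Sdha (-0.99 ± 0.22, adjusted p = 0.0286). Of the carriers, 1 of 11 fell, Vdac1, the outer membrane channel (-0.54 ± 0.13, adjusted p = 0.0465). Of pyruvate entry and the other TCA genes, 1 of 13 fell, Mpc1, a subunit of the mitochondrial pyruvate carrier (-0.76 ± 0.19, adjusted p = 0.0471). Bnip3 was called without each of the 14 libraries in turn. Sdhaf2 was called without 11 of the 14, and lost its call without replicate 2 or 3 of the NGS ACSS2i group or NGS vehicle 3 (adjusted p of up to 0.0862). Cox17, Vdac1 and Mpc1 were called only without NGS ACSS2i 1 among the 14, and lost the call without each of the other 13, with an adjusted p of up to 0.115, 0.103 and 0.103. Without NGS ACSS2i 2, Vdac1 stood at -0.34. No gene of mitochondrial biogenesis (14 tested) was called by edgeR in NGS, and none had an unadjusted p under 0.05 or was called by DESeq2 or limma voom.

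Between the strains the wider genes gave 48 of 115 calls in ACSS2i tumours (41.7%, against 40.3% of all tested genes) and 29 of 115 in vehicle tumours (25.2%, against 32.8%). Dhtkd1, a mitochondrial 2-oxoadipate dehydrogenase related to Ogdh, had 2.14, 1.17, 2.14 and 1.59 CPM in C57BI6 vehicle tumours and 0 counts in all 6 NGS libraries. A count of 0 over the 3 NGS vehicle libraries allows a level of up to 0.226 CPM, counting error only. The muscle isoform Cox6a2 of complex IV had 11.1, 1.27, 1.25 and 1.13 CPM in C57BI6 vehicle tumours, against 8.93, 137.1 and 48.2 CPM in NGS vehicle tumours. Its high values were in the libraries with the highest muscle sums of each group.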

How the data were processed

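The authors' deposited table holds raw counts per Ensembl gene for 14 libraries. Per the labels' protocols, RNA from pulverised tumours went into QuantSeq 3' libraries. Per the submitters' processing notes, mm10, RSEM 1.2.3 and DESeq2 were used, with no role stated. The aligner, the annotation release and the use of strand are not given in the sources used here. Symbols came from GENCODE M21 and matched 51596 genes, leaving 193 without one. Of the 48 genes, 10 overlap another tested gene, 8 of these on the other strand only.

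The main test was edgeR 4.0.16 (R 4.3.3; quasi-likelihood, TMM scaling, filterByExpr) on the counts as deposited, with 4 group means in 1 fit and 5 contrasts, two-sided, adjusted over 17294 genes at 0.05. DESeq2 1.42.0 and limma 3.58.1 (voom with quality weights) were alternatives. The other alternatives were other scaling, no filter, only the groups compared, a replicate block, C57BI6 libraries thinned to about the depth of NGS libraries, and leaving out muscle-rich or single libraries. A GC offset and adding copies to a member were chosen after seeing the data. Copies were found with BLAST 2.17.0 (95% identity, at least 100 bases and 50% of the copy). The test was checked on simulated counts.

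Named genes were, in each contrast, up to 10 called genes each way or the 3 with the smallest p, the smallest p in each role, and up to 3 genes of each wider list. Genes outside that rule (such as Uqcrc1 and Fh1 in NGS) were named after their values were seen. The 48 genes and all lists were chosen with earlier results of these data known. Counting error alone limits low values.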

Additional observations from a re-analysis of the deposited data

Results flagged for a closer look

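Among 50 groups of 4 C57BI6 libraries, 4 held 1 library far from the other 3. For genes not chosen by their values, chance flags about 1 in 20 such groups. In C57BI6 vehicle tumours, Uqcrc2 had 74.1 CPM in replicate 3, against 68.5 to 69.5 CPM in the others. Idh3g had 39.5 CPM in C57BI6 vehicle replicate 4, against 42.0 to 42.3 CPM in the others, and Ndufv2 had 61.1 CPM there, against 70.4 to 72.0 CPM. Idh3a had 68.1 CPM in C57BI6 ACSS2i replicate 3, which was muscle-rich, against 48.7 to 51.2 CPM in the others. The groups of 3 were not examined in this way.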

How the results depend on the processing

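The counts of called genes kept within 1.5 times, or at 0, in C57BI6 and in the strain comparison of ACSS2i tumours (24, 20 to 27 without single libraries) under every alternative run. In NGS the main count of 3 became 5 with no filter, 15 by DESeq2, 1 by limma voom and 0 with the 6 NGS libraries alone, where 12548 genes were tested, and 2 to 15 without single libraries, the 15 being without NGS ACSS2i 1. It became 2 with copies added, Cox7c being lost, and 2 without muscle-rich libraries, where Cox7c and Sdhc were called and Ndufa1 and Slc25a4 were not. For the difference between strains the 0 became 1 with no filter and 2 by DESeq2. In the vehicle comparison between strains the 5 became 15 with library totals alone, 3 with no filter, 11 by DESeq2, 11 by limma voom, 11 with only the groups compared, 1 without muscle-rich libraries, 10 with the GC offset, and 4 to 15 without single libraries. Apart from fewer libraries or genes in a fit, the cause was not tested. Under at least 1 alternative, fold changes of 19 of the 48 genes changed sign in C57BI6, 7 in NGS, 12 for the difference, 9 in the strain comparison of ACSS2i and 16 in that of vehicle tumours, and 0 of these were called in that comparison. They include Sdhb, Cox8a and Cycs in NGS, and Pcx and Cox7c in C57BI6, each of this pair without 1 vehicle library only.

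Replicate numbers are not stated to pair animals. The mean of its group was subtracted from each gene's log2 CPM, and what remained was correlated between ACSS2i and vehicle libraries over all tested genes. Same-numbered libraries gave -0.00221 to 0.0946 in NGS and -0.137 to 0.155 in C57BI6. Other pairs gave -0.124 to 0.0812 in NGS and -0.268 to 0.349 in C57BI6. An ACSS2i library correlated best with its own number in 2 of 3 NGS and 1 of 4 C57BI6 cases. With the replicate block the counts were 3 in NGS (Cox7c, Cs and Slc25a4), 0 in C57BI6, 0 for the difference, 23 in ACSS2i and 4 in vehicle tumours. NGS depth limits the low genes most: Sdhd rests on at most 42 counts and Pcx on at most 22 in every NGS library.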
